A study of Mus musculus with 10 samples.

Results

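The 9 genes described here, Lgr5, Ascl2, Smoc2, Slc12a2, Rgmb, Tnfrsf19, Cd44, Prom1 and Lrig1, are widely used marks of the columnar stem cells at the base of the intestinal crypt. They were chosen by name, and all 9 are among the 23810 genes of the count table. Their transcripts were counted in 25204 single cells of 10 mouse libraries, of which 22139 cells came from 8 organoid libraries and the rest from colonic crypts (2 libraries). An organoid is a culture of epithelium that grows in a gel, here from crypts of the proximal small intestine of mice aged 6 to 12 weeks. The ENR medium (3 libraries) held EGF, R-Spondin 1 and the BMP antagonist Noggin. The Hyper medium (3 libraries) held EGF, R-Spondin 1 conditioned medium, FGF2, the BMP receptor inhibitor LDN193189, GSK-3 Inhibitor XV, the p38 inhibitor Pexmetinib, 500 µM VPA (an inhibitor of histone deacetylases) and 2 µM EPZ6438, which blocks the methyltransferase EZH2. For -VE-organoids (2 libraries) the Hyper medium was used without VPA and EPZ6438. In replicates 1 and 2 the Hyper- and -VE-organoids were started from ENR-organoids, and replicate 3 of the ENR- and Hyper-organoids was started from primary crypts. The library names of replicates 1 and 2 begin with 2 and 6 in all 3 groups. Libraries with the same first number are called a series here, although the labels do not say what it marks. The passages of replicates 1, 2 and 3 were 2, 7 and 3 in ENR and 1, 6 and 3 in Hyper medium, and 1 and 6 for the -VE-organoids. One colonic library was of normal mice and the other of mice aged 8 weeks that drank 2.5% dextran sulfate sodium (DSS), which injures the colonic lining, for 5 days. Which mice stand behind each library is not given in the sources used here, so a p-value measures the spread between libraries.

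Crypt base columnar cells divide constantly and give rise to transit-amplifying (TA) cells, which divide further and mature into absorptive and secretory cells. Their state is held by Wnt signals from neighbouring cells. Lgr5 is a receptor for R-spondins, which strengthen Wnt signalling, and Ascl2 is a transcription factor of the basic helix-loop-helix family that maintains the stem cell state. Both genes, with Cd44 and Tnfrsf19, are known targets of the Wnt pathway. Inhibition of GSK-3 stabilises β-catenin and so turns on the same pathway inside the cell.

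The organoid libraries held between 1983 and 4293 kept cells, with a median of 38174 to 50652 UMIs (unique molecular identifiers, 1 per captured transcript) per cell. The epithelial markers Epcam, Krt8 and Cdh1 summed to between 2609 and 3284 CPM in every organoid library. CPM are UMIs relative to the total of a library, or of a class within it. Levels of genes in the fits that compare media were also scaled between libraries by TMM factors. Levels in this paragraph, in marker sums, in enterocytes, by order of classes, in barcodes not kept and in the colon were not. Over all kept organoid cells the summed stromal, leukocyte and endothelial markers reached at most 0.8 CPM for stroma, 0.8 CPM for leukocytes and 0.7 CPM for endothelium. The cell classes were annotated in the study with Lgr5, Ascl2, Cd44 and Olfm4 as marks of its stem class, so levels of the 9 genes between classes are given as a description. Of the kept cells, the share in the stem class was 12.2% ± 2.48 (SD, n = 3) for the ENR medium, 26.2% ± 2.78 (n = 2) for the medium without VPA and EPZ6438, and 42.1% ± 2.02 (n = 3) for the Hyper medium. Replicate 1 of the Hyper-organoids stood apart within that class mostly by Olfm4, a secreted glycoprotein of stem cells, which stood at 630.4 CPM against 22.03 and 36.5 CPM in replicates 2 and 3. In the same order of replicates the other marks of the class stood at 40.4, 24.6 and 24.0 CPM for Ascl2, 161.4, 163.5 and 121.8 CPM for Lgr5 and 90.6, 84.4 and 85.5 CPM for Cd44. Any pair of the 10 libraries shared between 0 and 5 cell barcodes.

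Summed over all kept cells, the 9 genes split by medium. Lgr5, Smoc2, Tnfrsf19 and Cd44 were higher in Hyper- than in ENR-organoids by more than 2-fold, while Ascl2, Rgmb, Slc12a2 and Lrig1 did not pass the test. Prom1 was higher by less than 2-fold. A gene was called when its Benjamini-Hochberg adjusted p in edgeR's quasi-likelihood test, taken over all 16037 genes tested, was under 0.05 and its fold was at least 2. By that rule 4 of the 9 genes were called, all of them higher, against 22.9% of all genes called in either direction and 18.2% called higher. By adjusted p alone, with no minimum fold, 5 of the 9 differed, against 56.8% of all genes. The median log2 difference of the 9 genes was 0.45, beside -0.01 for all genes tested. In such sums, a larger share of cells of one class and more RNA of the gene per cell cannot be told apart.

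**Figure D1:**
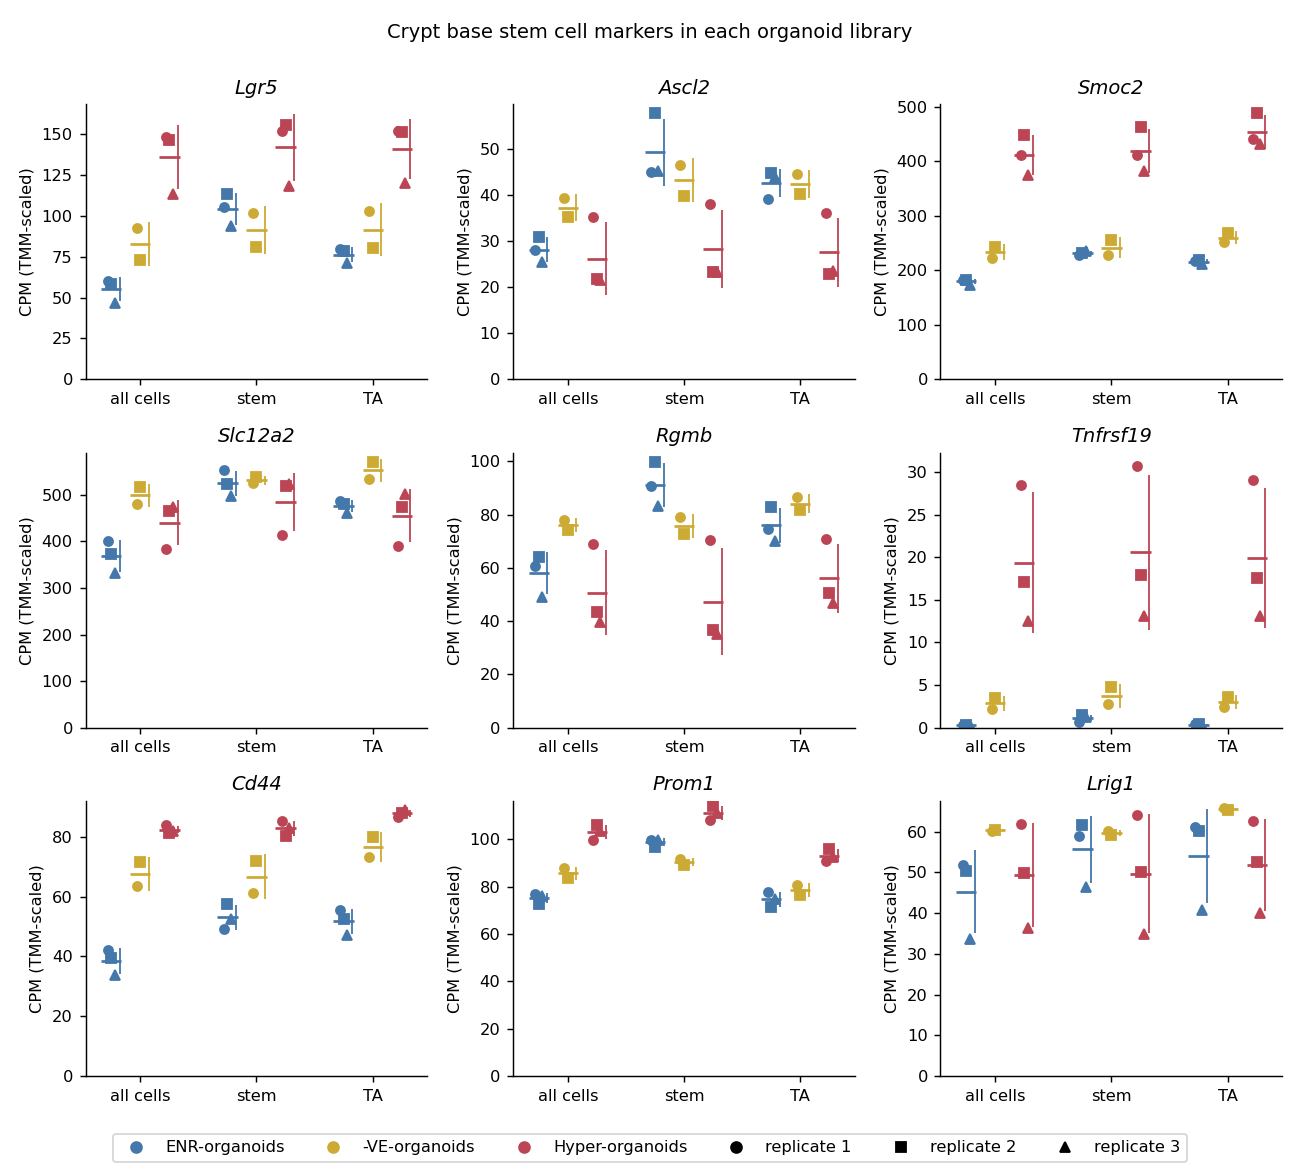
Level of each gene in every organoid library, in CPM scaled by TMM factors (vertical axes, from 0), over all kept cells, the stem class and the TA class (horizontal axes). Points are libraries with the shape giving the replicate, horizontal lines are group means and vertical lines are 1 SD; for Tnfrsf19 all 3 Hyper-organoid libraries sit between 12.5 and 30.7 CPM, above all others at 4.74 CPM or less.

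Lgr5 (chr10:115450311-115587780, minus strand, GRCm38) stood at 60.3, 58.1 and 46.6 CPM in the ENR-organoids, at 92.4 and 73.3 CPM in the -VE-organoids and at 148.2, 146.2 and 113.2 CPM in the Hyper-organoids. The groups did not overlap, with the -VE-organoids in between. The log2 difference of Hyper- to ENR-organoids was 1.30 (SE 0.14, adjusted p = 0.000138), and that of Hyper- to -VE-organoids was 0.71 (SE 0.16, adjusted p = 0.00775), which is under 2-fold. Between -VE- and ENR-organoids it was 0.59 (SE 0.16, adjusted p = 0.0596). Replicate 3, from primary crypts, was the lowest library of its group in both media.

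Tnfrsf19 (chr14:60963875-61046490, minus strand) encodes Troy, a receptor of the TNF receptor superfamily, and had the largest difference of the 9. It was nearly silent in ENR-organoids, with 30, 42 and 22 UMIs per library (0.311, 0.351 and 0.263 CPM). The -VE-organoids held 2.22 and 3.48 CPM and the Hyper-organoids 28.5, 17.1 and 12.5 CPM. No library of one group reached the next group. The log2 difference was 5.96 (SE 0.39, adjusted p = 1.01e-05) for Hyper- against ENR-organoids, 2.76 (SE 0.37, adjusted p = 0.000667) for Hyper- against -VE-organoids and 3.20 (SE 0.39, adjusted p = 0.00539) for -VE- against ENR-organoids. Tnfrsf19 was the only 1 of the 9 called in either of the last 2 comparisons, in which 18.6% and 2.55% of all genes were called. By adjusted p alone 5 of the 9 differed between Hyper- and -VE-organoids, against 47.6% of all genes.

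The promoters of Tnfrsf19 are printed because the gene changed most between media. That of Ascl2 is printed because its level in stem cells went the other way. Rgmb also went the other way there, and its promoters are not printed. The promoters of Lgr5, Smoc2 and Slc12a2 were not searched. For the other 6 of the 9 genes, RefSeq promoters (GRCm38.p6, from 250 bases before to 50 bases after a gene's start) were used. They were searched on both strands for CTTTG followed by 2 letters that are each A or T, forms of the site of the Wnt pathway's TCF factors, and for CAGCTG, an E-box as bound by factors of Ascl2's family. At least 1 of the CTTTG forms is held by 16.9% and CAGCTG by 16.3% of all 32851 promoters of this length. Among the 10 promoters of the 6 genes, the second Tnfrsf19 promoter holds 1 CTTTGAT, read on the opposite strand 202 bases before the start, and 1 CAGCTG 10 bases before it. The other 9 hold neither. Capitals mark these letters, which are a match and no evidence of binding, and all sequences are on the minus strand.
Tnfrsf19 promoter 1, chr14:61046806-61047105: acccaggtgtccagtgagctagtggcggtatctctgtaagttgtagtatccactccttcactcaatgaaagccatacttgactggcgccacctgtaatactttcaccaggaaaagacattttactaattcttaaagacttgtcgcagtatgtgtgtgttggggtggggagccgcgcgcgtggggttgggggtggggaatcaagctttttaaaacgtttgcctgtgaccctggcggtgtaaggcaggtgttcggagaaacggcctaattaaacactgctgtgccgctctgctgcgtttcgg
Tnfrsf19 promoter 2, chr14:61037938-61038237: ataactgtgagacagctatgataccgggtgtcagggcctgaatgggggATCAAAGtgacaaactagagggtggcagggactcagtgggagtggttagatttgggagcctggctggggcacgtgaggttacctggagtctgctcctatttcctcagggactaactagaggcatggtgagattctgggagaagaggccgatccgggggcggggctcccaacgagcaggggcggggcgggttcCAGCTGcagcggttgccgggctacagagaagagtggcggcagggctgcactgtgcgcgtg
Ascl2 promoter, chr7:142969215-142969514: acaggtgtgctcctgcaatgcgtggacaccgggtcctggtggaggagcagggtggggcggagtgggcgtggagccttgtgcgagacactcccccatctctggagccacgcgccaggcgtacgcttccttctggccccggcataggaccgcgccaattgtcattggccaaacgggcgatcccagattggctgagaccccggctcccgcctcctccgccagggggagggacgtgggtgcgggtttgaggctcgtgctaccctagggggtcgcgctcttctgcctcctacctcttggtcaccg
The Ascl2 promoter is 67.0% G and C and holds 23 CpG pairs, and the 2 Tnfrsf19 promoters hold 14 and 13. Those of Rgmb hold 18, 30 and 24, and the median of all promoters is 7.

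Smoc2 (chr17:14279506-14404790, plus strand) encodes a secreted protein of the matrix around cells. It stood at 182.1, 182.9 and 173.3 CPM in ENR-organoids, 222.9 and 243.4 CPM in -VE-organoids and 411.0, 447.9 and 375.1 CPM in Hyper-organoids. The groups were well apart, and the log2 difference of Hyper- to ENR-organoids was 1.20 (SE 0.07, adjusted p = 7.3e-06). It was 0.82 (SE 0.08, adjusted p = 0.000192) against -VE-organoids, and 0.38 (SE 0.08, adjusted p = 0.0300) between -VE- and ENR-organoids.

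Cd44 (chr2:102811141-102901665, minus strand), the cell surface receptor for hyaluronan, was also higher in -VE- than in ENR-organoids. It stood at 42.1, 39.5 and 33.8 CPM in ENR-organoids, 63.4 and 71.6 CPM in -VE-organoids and 83.7, 81.4 and 82.0 CPM in Hyper-organoids. The log2 difference was 1.10 (SE 0.09, adjusted p = 2.3e-05) for Hyper- against ENR-organoids and 0.81 (SE 0.09, adjusted p = 0.00396) for -VE- against ENR-organoids. It was 0.29 (SE 0.09, adjusted p = 0.0362) for Hyper- against -VE-organoids. These 3 comparisons share their libraries and are not independent of each other.

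Prom1 (chr5:43993620-44102032, minus strand), the membrane protein CD133, was higher in Hyper-organoids (103.1 CPM ± 3.09, SD) than in ENR-organoids (75.2 CPM ± 2.11), by 0.45 on the log2 scale (SE 0.05, adjusted p = 0.000107). It was also higher than in -VE-organoids (85.7 CPM ± 2.79), by 0.27 (SE 0.05, adjusted p = 0.00461).

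Slc12a2, Rgmb, Lrig1 and Ascl2 showed no difference past the test between Hyper- and ENR-organoids over all kept cells. Ascl2 stood at 28.0, 31.0 and 25.6 CPM in ENR-organoids, 39.3 and 35.2 CPM in -VE-organoids and 35.3, 21.7 and 21.7 CPM in Hyper-organoids. Rgmb stood at 60.6, 64.1 and 49.1 CPM, then 77.9 and 74.4 CPM, then 68.9, 43.4 and 39.6 CPM in that order. For both, Hyper replicate 1 lay above all ENR libraries and replicates 2 and 3 below them. Slc12a2 (chr18:57878678-57946821, plus strand), a sodium, potassium and chloride cotransporter, came nearest, with a log2 difference of 0.26 (SE 0.10, adjusted p = 0.0502). It was higher in -VE- than in ENR-organoids by 0.44 (SE 0.11, adjusted p = 0.0468). The difference was 0.12 (SE 0.21) for Lrig1 (chr6:94604529-94700158, minus strand), an inhibitor of ErbB receptors, -0.19 (SE 0.20) for Rgmb (chr17:15803188-15831039, minus strand), a co-receptor for BMPs, and -0.10 (SE 0.18) for Ascl2 (chr7:142966829-142969264, minus strand). Over all kept cells all 9 genes were higher in both -VE-organoid libraries than in every ENR-organoid library, against 45.7% of all genes whose groups did not overlap, in either direction. In 4 of the 9 the adjusted p was under 0.05, against 7.88% of all genes.

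Within the stem class fewer of the 9 genes were called. In the study's own clustering the stem cells of Hyper-organoids lay apart from those of the other media, and the class joins them under 1 annotation. Values within it thus compare cells of different clusters, and for Lgr5, Ascl2 and Cd44, which served to annotate the class, they compare cells chosen partly on these genes in each medium. Of the 9 genes 1 was called in Hyper- against ENR-organoids, Tnfrsf19, against 18% of the 13920 genes tested there. By adjusted p alone 7 of the 9 differed, against 49.5% of all genes. Tnfrsf19, Smoc2, Cd44, Lgr5 and Prom1 were higher, and Ascl2 and Rgmb lower. The median log2 difference of the 9 was 0.17, beside 0.00 for all genes tested.

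The Lgr5 difference from ENR-organoids was smaller within the stem class than over all kept cells, though the 2 values were not tested against each other. In the stem class it stood at 105.4, 113.2 and 93.6 CPM in ENR-organoids, 101.6 and 81.1 CPM in -VE-organoids and 151.9, 155.3 and 118.2 CPM in Hyper-organoids. The Hyper-organoids lay above both other groups, which overlapped each other. The log2 difference was 0.44 (SE 0.12, adjusted p = 0.0150) against ENR- and 0.64 (SE 0.14, adjusted p = 0.00521) against -VE-organoids. With each cell thinned to 10000 UMIs, 60.1%, 62.2% and 48.7% of the ENR stem cells, 60.0% and 49.9% of the -VE stem cells and 75.4%, 77.8% and 68.1% of the Hyper stem cells held an Lgr5 UMI. In ENR enterocytes, which should lack the transcript, the share was 6.99%, 5.20% and 7.43%. It was higher in -VE enterocytes, at 25.5% and 14.7%, and 22.8% and 16.7% of the 57 and 18 enterocytes of Hyper replicates 2 and 3. The level over all enterocyte UMIs was 6.53 CPM ± 0.65 (n = 3) in ENR-organoids, 25.95 CPM ± 10.5 (n = 2) in -VE-organoids and 23.9 CPM ± 0.40 in Hyper-organoids (n = 2, replicates 2 and 3). The Lgr5 level in enterocytes was thus not the same in the 3 media. Over the same cells Ascl2 stood at 1.81, 2.68 and 0 CPM in that order of media. Whether free RNA or transcripts of these cells gave the Lgr5 level was not tested, nor was its part in the Lgr5 differences.

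Ascl2 and Rgmb moved the other way in the stem class. Ascl2 stood at 45.0, 57.7 and 45.2 CPM in ENR-organoids, 46.6 and 39.9 CPM in -VE-organoids and 38.0, 23.4 and 23.3 CPM in Hyper-organoids. Its log2 difference of Hyper- to ENR-organoids was -0.81 (SE 0.19, adjusted p = 0.00684) and to -VE-organoids -0.61 (SE 0.20, adjusted p = 0.0353). Rgmb stood at 90.6, 99.6 and 83.2 CPM, then 79.0 and 72.7 CPM, then 70.4, 36.6 and 35.1 CPM in the same order of groups. Its log2 difference was -0.94 (SE 0.23, adjusted p = 0.00826) against ENR- and -0.68 (SE 0.25, adjusted p = 0.0533) against -VE-organoids. For both genes replicate 1 of the Hyper-organoids, at passage 1, was the highest of its group and nearest to the other media. Without that library the log2 difference from ENR-organoids was -1.06 (adjusted p = 6.44e-05) for Ascl2 and -1.32 (adjusted p = 2.23e-06) for Rgmb, and 3 of the 9 genes were called instead of 1, against 17.7% of all genes in that fit. Against -VE-organoids Rgmb was then also called (-1.05), 2 of the 9 against 16.9%. Passage, series and library cannot be told apart here.

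Tnfrsf19 in stem cells stood at 0.705, 1.49 and 1.25 CPM in ENR-organoids, from only 9, 18 and 9 UMIs. It stood at 2.75 and 4.74 CPM in -VE-organoids and at 30.7, 17.97 and 13.1 CPM in Hyper-organoids. The log2 difference was 4.19 (SE 0.44, adjusted p = 7.6e-05) against ENR- and 2.45 (SE 0.38, adjusted p = 0.000868) against -VE-organoids. After thinning, 24.6%, 15.2% and 12.4% of the Hyper stem cells held a Tnfrsf19 UMI, against 0.63% to 1.32% in the ENR libraries and 2.87% and 3.88% in the -VE libraries. In ENR enterocytes 0 of 186, 327 and 269 thinned cells held one, which allows shares of up to 1.61%, 0.917% and 1.12% of cells with a UMI (3 cells of each total). In Hyper enterocytes it was 0 of 57 thinned cells in replicate 2, which allows up to 5.26%, and 5.56% of 18 cells in replicate 3, so the share there is known only loosely. Over all enterocyte UMIs Tnfrsf19 stood at 0.0439 CPM in ENR-, 0.157 CPM in -VE- and 0.923 CPM ± 0.146 (n = 2) in Hyper-organoids. Replicate 1 was the highest Hyper library here, as it was for Ascl2 and Rgmb.

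Smoc2, Cd44 and Prom1 were higher in Hyper stem cells than in those of both other media, by less than 2-fold. The log2 difference from ENR-organoids was 0.85 (SE 0.08, adjusted p = 3.38e-05) for Smoc2, 0.64 (SE 0.08, adjusted p = 0.000215) for Cd44 and 0.17 (SE 0.05, adjusted p = 0.0255) for Prom1. From -VE-organoids it was 0.79, 0.31 and 0.30, with adjusted p of 0.000145, 0.0176 and 0.00342. Slc12a2 (-0.11, SE 0.09) and Lrig1 (-0.17, SE 0.19) did not pass the test. In the stem class 1 of the 9 was called in Hyper- against -VE-organoids, against 16.5% of all genes, and 6 differed by adjusted p alone, against 44% of all genes. Between -VE- and ENR-organoids 0 of the 9 were called by edgeR, against 0.503% of all genes. There 2 of the 9 had an unadjusted p under 0.05, a limit for which the share of all genes was not counted. DESeq2 called 1, Tnfrsf19, against 1.32% of all genes.

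**Figure D2:**
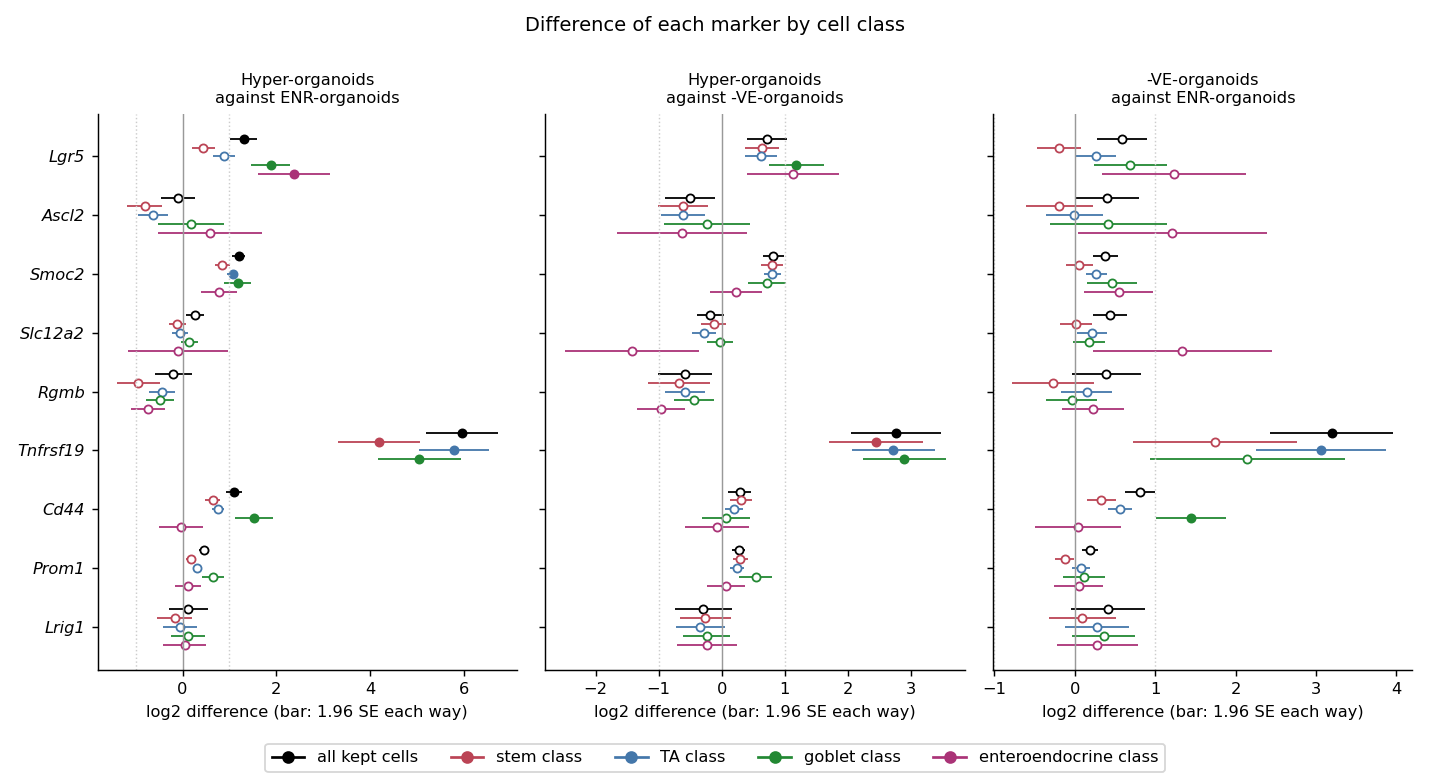
Log2 difference of each gene (horizontal axes) in the 3 comparisons of media, by cell class in colours. Filled points were called, bars reach to each side by the multiple of the SE named on the axis and dotted lines mark 2-fold; against ENR-organoids, Ascl2 (-0.81) and Rgmb (-0.94) lie below 0 in the stem class while Lgr5 reaches its largest values in goblet (1.88) and enteroendocrine cells (2.37).

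In TA cells, the dividing daughters of the stem cells, 2 of the 9 genes were called in Hyper- against ENR-organoids, against 20.9% of 14553 genes. The TA cells of Hyper- and ENR-organoids also lay apart in the study's clustering, so these values too compare different clusters under 1 annotation. The called genes were Smoc2 (1.07, SE 0.06, adjusted p = 3.35e-06) and Tnfrsf19 (5.78, SE 0.38, adjusted p = 7.06e-06). By adjusted p alone 7 of the 9 differed, against 55.8% of all genes. Lgr5 was higher by 0.88 (SE 0.12, adjusted p = 0.000301), with 79.4, 78.4 and 71.0 CPM in ENR-organoids and 151.5, 151.1 and 119.8 CPM in Hyper-organoids. Ascl2 was lower by 0.62 on the log2 scale (log2 difference -0.62, SE 0.16, adjusted p = 0.0108), as was Rgmb (-0.44, SE 0.14, adjusted p = 0.0295). The Rgmb groups overlapped in TA cells, since Hyper replicate 1 stood at 70.9 CPM and ENR replicate 3 at 70.2 CPM. In Hyper- against -VE-organoids 1 of the 9 was called, Tnfrsf19 (2.72, SE 0.34), against 17.8% of all genes, and 7 differed by adjusted p alone, against 47.3%. Tnfrsf19 was also the 1 called in -VE- against ENR-organoids (3.06, SE 0.41, adjusted p = 0.0102), against 1.03% of all genes, and 2 of the 9, Tnfrsf19 and Cd44 (0.56, SE 0.07), differed by adjusted p alone, against 3.14%. The Tnfrsf19 call was lost without ENR replicate 1, ENR replicate 2 or -VE replicate 2, at log2 differences of 3.15, 3.14 and 2.77 and adjusted p of 0.0529, 0.0513 and 0.0740.

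The difference between media was compared between the stem and TA classes in 1 fit with each library as a block. Both classes came from clusters of the same cells, drawn from their expression and annotated for the stem class with Lgr5, Ascl2 and Cd44 among others, so the test is not independent of how the classes were made. The part of that choice in the values was not tested. Of 14704 genes tested 1.14% were called, and of the 9 genes 1, Tnfrsf19. Its log2 difference of Hyper- to ENR-organoids was 1.58 smaller in the stem than in the TA class (-1.58, SE 0.32, adjusted p = 0.00174). That value rests on 9 to 21 UMIs per ENR library and class, and it did not pass the test when cells were thinned (-1.31, adjusted p = 0.283) or without ENR replicate 2 (-1.34, adjusted p = 0.0619). By adjusted p alone, 5 of the 9 differed between the classes, against 15.1% of all genes. For Lgr5, a mark of the stem class, the value was -0.43 (SE 0.04) and is given as a description. Rgmb (-0.52, SE 0.08, adjusted p = 0.000178), Smoc2 (-0.20, SE 0.04, adjusted p = 0.000653) and Prom1 (-0.13, SE 0.04, adjusted p = 0.0362) all had the lower value in the stem class.

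The levels of Lgr5 in stem and TA cells lay closer together in the Hyper medium and in the medium without VPA and EPZ6438 than in the ENR medium. In plain CPM (CPM of a gene over all UMIs of the class, with no scaling between libraries), Lgr5 stood at 101 ± 11.7 (SD, n = 3) in stem and 74.3 ± 6.32 in TA cells of ENR-organoids. Those ranges did not overlap. In Hyper-organoids the same levels were 148.9 ± 23.5 and 147.9 ± 20.6 CPM, and in -VE-organoids 88.8 ± 12.8 and 88.6 ± 14.8 CPM (n = 2), and both pairs overlapped. Cd44 stood at 92.2 ± 0.71 CPM in TA and 86.8 ± 3.30 CPM in stem cells of Hyper-organoids, and those libraries did not overlap. In ENR-organoids the Cd44 levels of these classes did overlap.

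**Figure D3:**
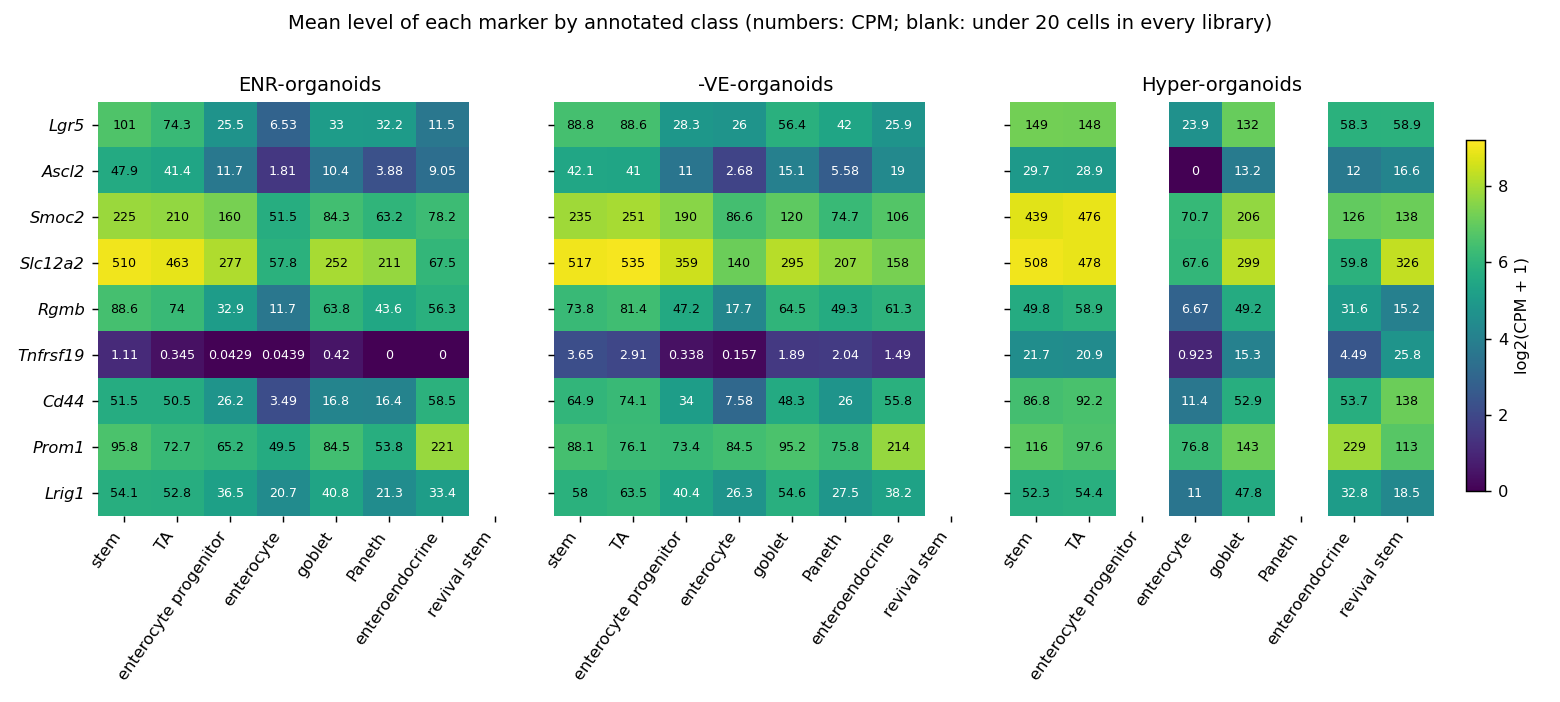
Mean level of each gene in plain CPM (numbers, coloured on a log2 scale) by annotated class for the 3 organoid groups. Classes with under 20 cells in every library are blank; in Hyper-organoids Lgr5 stands at 132 CPM in goblet cells, close to 149 CPM in stem cells.

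The order of classes differed by gene. Lgr5 in ENR-organoids fell from stem to TA cells and then to goblet (33.0 ± 14.4 CPM) and Paneth cells (32.2 ± 16.8 CPM), which overlapped. It was lowest in enteroendocrine cells (11.5 ± 6.94 CPM) and enterocytes. Ascl2 was highest in stem and TA cells in every medium, with 10.4 ± 7.10 CPM in ENR goblet cells and 13.2 ± 3.04 CPM in Hyper goblet cells. Prom1 was highest in enteroendocrine cells in all 3 media, at 221 ± 21.03, 214 ± 38.4 and 229 ± 10.3 CPM in ENR-, -VE- and Hyper-organoids. Its stem class held 95.8 ± 2.49, 88.1 ± 0.51 and 116 ± 3.05 CPM, and no enteroendocrine library overlapped with the next class. Cd44 in ENR-organoids stood at 58.5 ± 21.01 CPM in enteroendocrine, 51.5 ± 4.26 CPM in stem and 50.5 ± 5.28 CPM in TA cells, which overlapped. The class annotated as revival stem cells had at least 20 cells in 1 Hyper library only, with Lgr5 at 58.9, Ascl2 at 16.6, Cd44 at 138 and Tnfrsf19 at 25.8 CPM over its 26 cells.

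Lgr5 was also higher in goblet and enteroendocrine cells. In goblet cells, the mucus-secreting class, 4 of the 9 genes were called in Hyper- against ENR-organoids, against 13.3% of 11714 genes. Lgr5 stood at 33.9 CPM ± 13.6 in ENR- and 127.7 CPM ± 12.8 in Hyper-organoids, a log2 difference of 1.88 (SE 0.21, adjusted p = 6.31e-05). Smoc2 (1.18, SE 0.15), Tnfrsf19 (5.05, SE 0.45) and Cd44 (1.52, SE 0.21) were the others. The Tnfrsf19 value rests on only 1, 2 and 2 UMIs in the ENR libraries, so its size is known only loosely. By adjusted p alone 6 of the 9 differed, against 31% of all genes. Rgmb alone of the 9 was lower, at 60.3, 41.7 and 40.1 CPM in Hyper- and 58.1, 74.1 and 66.3 CPM in ENR-organoids. The share of thinned goblet cells with an Lgr5 UMI was 18.8%, 29.1% and 8.40% in ENR-organoids and 66.2%, 61.3% and 61.3% in Hyper-organoids. Cd44 was also called in -VE- against ENR-organoids (1.45, SE 0.22, adjusted p = 0.00730), 1 of the 9 against 1.14% of all genes. In Hyper- against -VE-organoids Lgr5 (1.19, SE 0.22, adjusted p = 0.00287) and Tnfrsf19 (2.90, SE 0.33) were called, 2 of the 9 against 9.87%, and 4 differed by adjusted p alone, against 20.4%. Without -VE replicate 2 the Cd44 call against ENR-organoids (1.24, adjusted p = 0.131) and the Lgr5 call (1.04, adjusted p = 0.0522) were lost. In enterocytes Lgr5 stood at 6.53 CPM in ENR- and 23.9 CPM in Hyper-organoids. In barcodes that were not kept Lgr5 reached, over all UMIs, at most 13.6 CPM in ENR- and at least 69.3 CPM in Hyper-organoid libraries. With mitochondrial UMIs left out of the totals these values were 27.9 and 132.3 CPM. Whether such barcodes held free RNA or damaged cells was not tested. The part of free RNA in the goblet and enteroendocrine values was not tested. The goblet class held between 107 and 379 cells per library.

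In enteroendocrine cells, the hormone-producing class, 8 of the 9 genes could be tested, since Tnfrsf19 fell under the filter on low counts. Lgr5 was called in Hyper- against ENR-organoids (2.37, SE 0.39, adjusted p = 0.00255), 1 of 8 against 7.40% of 11050 genes. It stood at 10.9 CPM ± 6.22 in ENR- and 59.7 CPM ± 17.5 in Hyper-organoids. The ENR level rests on only 23, 18 and 4 UMIs, so the size of the Lgr5 difference is known only loosely. Rgmb was lower (-0.74, SE 0.19, adjusted p = 0.0210) and Smoc2 higher (0.77, SE 0.20, adjusted p = 0.0223), by less than 2-fold, so 3 of 8 differed by adjusted p alone, against 14% of all genes. Against -VE-organoids 0 were called by edgeR, and between -VE- and ENR-organoids 0 were called, where 4.01% and 0.19% of all genes were called. In each of these comparisons 3 genes had an unadjusted p under 0.05. The share of all genes under that looser limit was not counted, so these 3 cannot be set against it. Rgmb alone had an adjusted p under 0.05 against -VE-organoids (-0.97, SE 0.19, adjusted p = 0.0149), 1 of 8 against 5.1% of all genes. With the low-count filter off, 2 of the 9 were called against -VE-organoids and 3 between -VE- and ENR-organoids, against 4.98% and 1.5% of all genes in that fit. DESeq2 called 2 of the 9 in Hyper- against ENR-organoids, Lgr5 and Tnfrsf19, against 4.76% of all genes.

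The make-up of the cultures differed along with these values, and its part in them was not tested beyond the following. When stem, TA, goblet and enteroendocrine cells were given equal weight, the log2 ratio of Hyper- to ENR-organoids was 5.06 for Tnfrsf19, 1.15 for Lgr5, 1.06 for Smoc2 and 0.69 for Cd44. It was -0.38 for Ascl2 and -0.58 for Rgmb. Stem cells held 20.0% ± 2.92 of all Lgr5 UMIs in ENR-organoids, 26.5% ± 2.28 in -VE-organoids and 38.8% ± 2.22 in Hyper-organoids, and TA cells held 60.6%, 65.0% and 55.4%. In the same order, stem cells made up 12.2%, 26.2% and 42.05% of the kept cells, and TA cells 38.8%, 51.1% and 46.4%. The stem share of Lgr5 UMIs lay above the share of cells in ENR- and below it in Hyper-organoids. A share of cells is not a share of UMIs, since stem cells held fewer UMIs per cell than TA cells in every organoid library. In Hyper replicate 1 the medians were 42140 and 56915.5 UMIs. Relative to UMIs (plain CPM), Lgr5 stood at 148.9 in stem cells and 143.9 over all kept cells of Hyper-organoids. In ENR-organoids these levels were 101 and 53.5 CPM. Summed enterocyte markers (Fabp1, Apoa1, Reg1 and Rbp2) ranged from 1684 to 2340 CPM over all ENR cells and from 133.6 to 585.3 CPM over all Hyper cells.

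The 9 genes were counted together in single cells after thinning. In the stem class a cell held on average 4.73, 4.96 and 4.36 of the 9 genes in the ENR libraries, 4.79 and 4.70 genes in the -VE libraries, and 5.45, 5.01 and 4.64 genes in the Hyper libraries, so the groups overlapped. In goblet cells the averages were 2.88, 3.40 and 2.59 in ENR- and 4.44, 4.30 and 3.91 in Hyper-organoids, which did not overlap. The share of Hyper stem cells with an Ascl2 UMI was 29.1% of 842 cells with and 31.6% of 275 cells without an Lgr5 UMI in replicate 1, 21.7% and 17.5% in replicate 2 and 19.4% and 17.0% in replicate 3. In the ENR libraries it was 32.1% and 27.8%, 39.3% and 32.8%, and 31.5% and 28.2%. The share was higher in cells with an Lgr5 UMI in all 3 ENR and in 2 of the 3 Hyper libraries, and the cells of a library are not replicates.

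Across the 50 sums of an organoid library and class with at least 20 cells, the genes whose level ran most like that of Lgr5 were Cdk6 (r = 0.881), Bckdhb (r = 0.871), Rnf43 (r = 0.862), Igfbp4 (r = 0.847) and Smo (r = 0.844), of 8016 genes of at least 10 CPM on average. Smoc2 was the nearest of the 9, at r = 0.828 and rank 10. Tnfrsf19 had r = 0.746, Slc12a2 0.70, Cd44 0.67, Ascl2 0.64, Lrig1 0.63 and Rgmb 0.51. Prom1 stood apart at r = 0.14. Ascl2 ran closest to Lrig1 (r = 0.848) and Cd44 (r = 0.803). These sums share libraries, so the values are a description across classes and media.

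Other genes known from crypt base columnar cells were counted as a list of 27, all of which were tested. Over all kept cells 10 were called in Hyper- against ENR-organoids, against 22.9% of all genes, 8 higher and 2 lower, with a median log2 difference of 0.75 beside -0.01 for all genes. Among those higher were Fstl1 (5.68, SE 0.57), a secreted glycoprotein, Igfbp4 (3.02, SE 0.23), which binds insulin-like growth factors, the Wnt target Sp5 (2.04, SE 0.14) and Gkn3 (1.46, SE 0.38). Lower were the potassium channel subunit Kcne3 (-1.45, SE 0.19) and Clca3b (-1.20, SE 0.18). In the stem class 9 were called, against 18% of all genes, 5 higher and 4 lower, with a median of 0.09. Fstl1 (4.30), Igfbp4 (2.08), Sp5 (1.07) and Mex3a (1.01) were among those higher there. Olfm4 was lower (-4.13, SE 1.09, adjusted p = 0.0111), as were Clca3b (-2.005), Kcne3 (-1.501) and Zbtb38 (-1.05). The Olfm4 level in Hyper stem cells, 216.6 CPM ± 326.4 (n = 3), spread more widely than its mean. The median of the list in the stem class was near that of all genes, 0.00.

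Of 19 paralogs of the 9 genes 14 passed the filter on low counts, and 8 were called over all kept cells, against 22.9% of all genes, 6 higher and 2 lower, with a median of 0.28. Most are scarce. Rgma, a relative of Rgmb, rose from 0.213 to 1.85 CPM (3.12, SE 0.40) and Ascl4, a relative of Ascl2, from 0.0444 to 0.329 CPM (2.88, SE 0.43). The TNF receptor family member Eda2r rose from 0.874 to 2.58 CPM (1.56, SE 0.30). Slc12a4 stood at 0.0069 CPM in ENR- and 1.27 CPM in Hyper-organoids, and Prom2 at 0 and 0.255 CPM. Their fitted folds rest on too few ENR counts to be given. Lrig3, a relative of Lrig1, was lower (41.7 to 13.0 CPM, -1.68, SE 0.06, adjusted p = 1.09e-06), as was the hyaluronan receptor Lyve1 (-1.24, SE 0.21).

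Of 19 partners of the 9 genes 16 were tested and 3 called over all kept cells, against the same 22.9%, 2 higher and 1 lower, with a median of 0.01. Bmp4, a ligand of the BMP pathway (0.0182 to 1.86 CPM), and the R-spondin Rspo4 (0.0906 to 0.387 CPM) were higher at low levels. The Wnt receptor Fzd5 was lower, from 60.7 to 17.8 CPM (-1.77, SE 0.07, adjusted p = 1.51e-06). Of the 4 genes tied to reserve stem cells, Bmi1 (1.24, SE 0.13) and Mex3a (1.30, SE 0.14), the latter also in the list of 27, were called higher. In the stem class 1 partner (Bmp4), 7 paralogs and 2 of the 4 reserve genes were called, against 18% of all genes.

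In the colon there was 1 library a group, so values carry counting intervals only (exact, 95%) and no test. The normal library held 1132 and the DSS library 1933 kept cells in 25 annotated clusters. In 6 of these over 50% of the cells held a UMI of the leukocyte gene Ptprc. Leaving out those clusters and other cells with a Ptprc UMI removed 20.4% of cells from the normal and 24.6% from the DSS library. The colonocyte markers Car1, Slc26a3 and Aqp8 summed to 6400 CPM in the normal and 5149 CPM in the DSS library, against at most 38.7 CPM in any organoid library.

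Over the cells left, Lgr5 stood at 3.35 CPM (2.57 to 4.29) in the normal and 5.97 CPM (5.13 to 6.92) in the DSS library, a ratio of 1.78 (1.33 to 2.42). Smoc2 stood at 8.83 and 22.8 CPM (ratio 2.59, 2.18 to 3.09) and Slc12a2 at 99.2 and 159.8 CPM (1.61, 1.53 to 1.70). Prom1 was also higher in the DSS library (1.48, 1.41 to 1.55). Ascl2 (1.07, 0.881 to 1.30) and Rgmb (1.05, 0.943 to 1.18) had intervals that included 1. So did Cd44 (0.884, 0.780 to 1.00), while Lrig1 was higher (1.30, 1.13 to 1.49). Tnfrsf19 had 18 UMIs in the normal and 13 in the DSS library (ratio 0.456, 0.205 to 0.983). Over all kept cells, with leukocytes included, the Cd44 ratio was 1.03, while summed leukocyte markers stood at 113.1 CPM in the normal and 1074 CPM in the DSS library. The part of leukocytes in the other ratios was not tested. The cells left also lay in different clusters by library. Of these clusters 1 held 274 normal and 1 DSS cell, with 0.165 CPM of Lgr5, 0.165 CPM of Smoc2 and 5.45 CPM of Slc12a2. Another held 11 normal and 230 DSS cells, with 9.76, 59.1 and 282.2 CPM of these genes. A different make-up of clusters and a different level per cell cannot be told apart in these ratios.

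The cluster annotated as stem, with 102 normal and 168 DSS cells, gave other ratios. Of the 25 clusters it had the highest level of Lgr5 (22.4 CPM), Slc12a2 (403 CPM) and Rgmb (48.1 CPM), but not of the other 6 genes. For Rgmb the lead lay within counting error, at 42.63 to 54.01 CPM beside 46.85 CPM (41.12 to 53.15) in another cluster. The stem cluster held 41.4 CPM of Ascl2, 51.8 CPM of Smoc2 and 42.5 CPM of Lrig1, where 1 cluster of 13 cells held 80.3, 64.2 and 64.2 CPM from 5, 4 and 4 UMIs. A cluster of 241 cells, 230 of them of the DSS library, also lay above it for Smoc2 and Lrig1. That cluster held 59.1 CPM of Smoc2 (52.7 to 66.1, 309 UMIs) and 43.4 CPM of Lrig1 (37.96 to 49.46). These intervals overlapped those of the stem cluster (46.15 to 57.96 and 37.36 to 48.07). The stem cluster held 1.53 CPM of Tnfrsf19, 81.5 CPM of Cd44 and 125.5 CPM of Prom1, against 3.31 CPM (17 UMIs), 259.5 CPM and 544.4 CPM in the highest cluster of each, which were 3 different clusters. That of Cd44 held 66 cells, all of the DSS library and 68.2% of them with a Ptprc UMI, and was among the Ptprc clusters left out of the values above. Within the cluster annotated as stem, Lgr5 stood at 20.3 CPM (15.1 to 26.8) in the normal and 23.9 CPM (19.0 to 29.7) in the DSS library, a ratio of 1.18 (0.818 to 1.71). Ascl2 had 56.1 and 30.9 CPM (ratio 0.551, 0.424 to 0.716) and Cd44 107.7 and 62.7 CPM (0.583, 0.484 to 0.700), both lower in the DSS cells. Prom1 had 76.0 and 161.1 CPM (2.12, 1.79 to 2.52) and Smoc2 39.4 and 60.7 CPM (1.54, 1.20 to 1.98). The intervals of Slc12a2 (1.05, 0.971 to 1.15), Rgmb (0.934, 0.734 to 1.19) and Lrig1 (0.856, 0.663 to 1.11) included 1, and Tnfrsf19 had 7 and 2 UMIs. The 2 libraries differ in animals as well as treatment, so these ratios compare libraries.

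**Figure D4:**
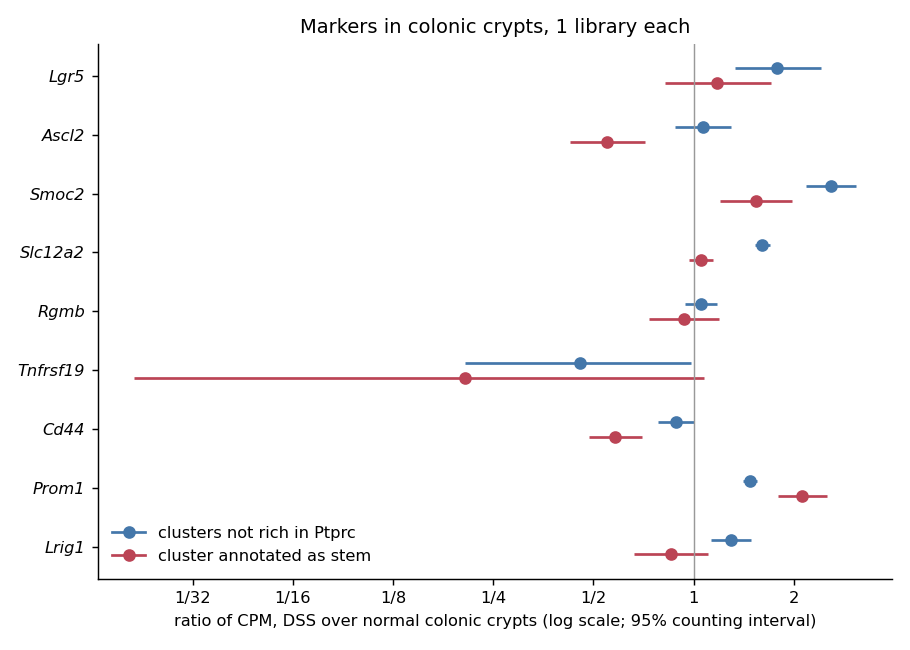
Ratio of each gene's level in the DSS to the normal colonic crypts (horizontal axis, log scale) over cells outside the Ptprc clusters (blue) and in the cluster annotated as stem (red), with 95% counting intervals. In the stem cluster Ascl2 (0.551) and Cd44 (0.583) lie below 1 while Prom1 (2.12) lies above it.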

How the data were processed

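GEO's labels gave each library's group, origin and passage. The series (2, 6 and C) is the start of the library names, whose meaning the labels do not give. Reads were processed by the authors with Cell Ranger 3.0.0 (mm10) and Seurat 3.1.4 per the labels, and the matrix headers name another Cell Ranger version. The deposited values are UMI counts per gene and cell, not normalized, which differed from the library matrices in 0 of the entries compared. Cells and classes are those the authors kept. The stated filter was 1500 genes and 25% mitochondrial reads, but 1375 kept cells had fewer genes and none exceeded 20%. Doublets were not called here.

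Counts were summed per library, and per class of at least 20 cells. One fit held the 3 organoid groups (edgeR 4.0.16 under R 4.3.3, with TMM, filterByExpr, glmQLFit and glmQLFTest, Benjamini-Hochberg over all genes tested), and SE is the log2 difference divided by the root of F. Stem and TA classes were compared by an interaction with libraries as blocks. Alternatives were DESeq2 1.42.0, other filters, factors and cells, a replicate block and leaving out each library. The fit was also run on data simulated from its own estimates of spread with no effect of series, and no result here rests on that run. Thinned cells had 10000 UMIs (seed 7), and shallower cells were left out. Colonic ratios are of plain CPM. Intervals cover counting error only. Every column of values was mapped to a sample (0 unmapped). The 9 genes and the lists were chosen with earlier results of these data known. The text names all 9, the called list genes (at most 5 per list and direction by size) and the 5 genes most like Lgr5. One item that this rule names is not reported here. Gene positions are of GENCODE M21.

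Within a series, deviations from the group mean ran together over all kept cells (ENR- with Hyper-organoids, correlations of 0.192, 0.17 and 0.436 over 16037 genes) and in the TA class (0.145, 0.146 and 0.38), which meets the limit of 0.1 set for pairing. In the other classes it was not met, and for -VE-organoids, with 2 libraries, this could not be decided. All values given are from the fit without the block, and the fit with it was an alternative.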

Additional observations from a re-analysis of the deposited data

Results flagged for a closer look

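For 5 genes the difference of Hyper- to ENR-organoids was itself different between the stem and the TA class (edgeR, interaction with libraries as blocks, adjusted p alone), against 15.1% of all genes tested. The stem value minus the TA value, on the log2 scale, was -0.43 for Lgr5, -0.20 for Smoc2, -0.52 for Rgmb, -1.58 for Tnfrsf19 and -0.13 for Prom1. Both classes were drawn from the expression of the same cells, and Lgr5 served to annotate the stem class, so its value is a description. The other 4 had adjusted p between 0.000178 (Rgmb) and 0.0362 (Prom1) over all 14704 genes, and the part of the choice of classes in these values was not tested. Tnfrsf19 did not pass with thinned cells (-1.31, adjusted p = 0.283) or without ENR replicate 2 (-1.34, adjusted p = 0.0619).

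Barcodes of the organoid libraries that the authors did not keep were in no comparison. They numbered 1712 to 4122 per library, with a median of 840 to 1125 genes. Their median mitochondrial share differed by medium, at 59.0% to 60.7% in ENR-, 46.5% to 51.0% in -VE- and 40.8% to 51.2% in Hyper-organoid libraries. All 9 genes were higher in these barcodes in every Hyper-organoid library than in any ENR-organoid library, as were 49.7% of the 14952 nuclear genes with at least 10 UMIs in them. With mitochondrial UMIs left out of the totals, a scaling added after the values were seen, the share was 41.4% of all genes and again 9 of the 9. On the scale of all UMIs, the lowest Hyper and the highest ENR value were 69.3 and 13.6 CPM for Lgr5, 5.21 and 3.70 CPM for Ascl2, and 167.8 and 58.8 CPM for Smoc2. They were 271.2 and 127.0 CPM for Slc12a2, 31.5 and 23.1 CPM for Rgmb, and 6.77 and 0.180 CPM for Tnfrsf19. They were 46.2 and 11.8 CPM for Cd44, 66.9 and 33.9 CPM for Prom1, and 48.5 and 35.2 CPM for Lrig1. Ascl2, Rgmb, Slc12a2 and Lrig1 did not pass the test over the kept cells, and these barcodes were not tested.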

How the results depend on the processing

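Counts are of the 9 genes called. With each library left out in turn, the count for Hyper- against ENR-organoids stayed at 4 over all kept cells, 2 in TA and 4 in goblet cells, and ranged from 1 to 3 in the stem class (3 without Hyper replicate 1) and from 1 to 2 in enteroendocrine cells (2 without either -VE library). For Hyper- against -VE-organoids it stayed at 1 over all kept and TA cells, and ranged from 1 to 2 in stem (2 without Hyper replicate 1) and goblet cells (1 without -VE replicate 2) and from 0 to 2 in enteroendocrine cells (2 without -VE replicate 1, 1 without Hyper replicate 1). For -VE- against ENR-organoids it stayed at 1 over all kept and 0 in enteroendocrine cells, and ranged from 0 to 1 in stem (1 without Hyper replicate 1) and TA cells and from 0 to 2 in goblet cells (0 without -VE replicate 2, 2 without ENR replicate 2). In TA cells the call of Tnfrsf19 was lost without ENR replicate 1 or 2 or -VE replicate 2. The difference between classes ranged from 0 to 1 (0 without ENR replicate 2). The replicate block by series changed no count or call (4, 1 and 1 over all kept cells in the order Hyper to ENR, Hyper to -VE and -VE to ENR). Same-series correlations of ENR- with Hyper-organoids were lower when summed within classes, down to 0.0764 in stem, 0.094 in goblet and -0.0336 in enteroendocrine cells. Over these refits and those of the next paragraph that kept the minimum fold, 4.68% to 23.6% of all genes were called for Hyper to ENR, 1.17% to 19.1% for Hyper to -VE, 0.0271% to 3.77% for -VE to ENR and 0.606% to 1.39% for the difference between classes.

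By adjusted p with no minimum fold the counts were 5 (Hyper to -VE) and 4 (-VE to ENR) over all kept cells, 7 and 6 in stem cells (Hyper to ENR and to -VE), 7, 7 and 2 in TA cells, 4 in goblet cells (Hyper to -VE), 3 and 1 in enteroendocrine cells, and 5 for the difference between classes. Thinned cells gave 2 in stem cells (Hyper to ENR), 1 in enteroendocrine cells (Hyper to -VE) and 0 for the difference between classes. The stem comparison of -VE to ENR gave 1 with DESeq2, with no filter on low counts, or with TA cells pooled. With no filter, goblet cells gave 2 (-VE to ENR) and enteroendocrine cells 2, 2 and 3. In enteroendocrine cells DESeq2 gave 2 (Hyper to ENR), and leaving out the 5% of cells with the most UMIs gave 1 (Hyper to -VE). The causes were not tested.

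Directions that turned were of values that were not called, and under the alternatives that turned them the adjusted p was at least 0.504 where tested. At 10 CPM in 2 libraries, Ascl2 over all kept cells became 0.0098 (Hyper to ENR), Slc12a2 0.0237 and Lrig1 0.0244 in TA cells and Slc12a2 -0.004284 in stem cells (-VE to ENR). In that stem comparison the block gave -0.0689 for Lrig1, series 2 and 6 alone -0.0197 for Slc12a2 and -0.0172 for Lrig1, thinning -0.0289 for Smoc2, -0.00639 for Slc12a2 and -0.0639 for Lrig1, and pooling TA cells 0.173 for Lgr5, 0.0588 for Rgmb and 0.0577 for Prom1. Equal class weights gave -0.008809 for Rgmb and -0.00093 for Prom1 (-VE to ENR). Ascl2 in TA cells (-VE to ENR) was 0.002453 with DESeq2, 0.004999 with no filter and 0.0141 in series 2 and 6, where Lrig1's difference between classes was 0.005648. With single libraries left out, values ran for -VE to ENR from -0.0814 to 0.0858 (Ascl2, TA), -0.0163 to 0.200 (Lrig1, stem), -0.0188 to 0.0775 (Slc12a2, stem) and -0.000239 to 0.176 (Smoc2, stem). For Hyper to ENR they ran from -0.376 to 0.0197 (Ascl2, all kept), -0.0700 to 0.305 (Lrig1, all kept), -0.366 to 0.0323 (Lrig1, stem), -0.214 to 0.0916 (Lrig1, TA), -0.167 to 0.0181 (Slc12a2, stem) and -0.137 to 0.0527 (Slc12a2, TA), and for Hyper to -VE from -0.182 to 0.00418 (Slc12a2, stem). Depth limits Tnfrsf19 in ENR-organoids most, at 22 to 42 UMIs per library.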
